A study of Caenorhabditis elegans with 2 samples.

Results

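The tRNA genes described here lie inside introns of protein-coding genes in Caenorhabditis elegans. A gene was a member if the Ensembl annotation of WBcel235 gave it the biotype tRNA on a nuclear chromosome, if it lay wholly within the span of a protein-coding gene, and if it overlapped none of that gene's exons. Of 612 nuclear tRNA genes, 284 (46.4%) met this rule, 319 lay in intergenic sequence, and 9 lay over an exon or only partly inside a protein-coding gene. The rule for members used no measured value, although it was chosen with earlier results of these data known. The measurement was chromatin immunoprecipitation with sequencing of FLT-1, a worm relative of the vertebrate BAZ2 chromatin proteins, for which the labels also give the name baz-2. The strain was OP797, whose integrated transgene wgIs797 is a fosmid copy of flt-1 fused to TY1, EGFP and 3xFLAG tags, joined to unc-119(+) in worms carrying unc-119 (tm4063). Early embryos of 1 hour were obtained by bleaching, and an antibody against green fluorescent protein was used on 2 biological replicates of this single group. The signal is therefore that of a tagged transgene product averaged over whole embryos, and there was no second condition and no control library used here.

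Transfer RNAs carry amino acids to the ribosome, and RNA polymerase III makes them from short genes whose promoter lies inside the transcribed sequence. The factor TFIIIC recognises an A box near the 5′ end and a B box further downstream, TFIIIB then sits just upstream of the start, and a run of T residues ends the transcript. In C. elegans many tRNA genes lie in introns, where a host gene made by RNA polymerase II runs across them on either strand. In mammals, BAZ2A is best known as a partner of the ISWI remodeller SNF2H at silent ribosomal RNA genes.

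The sequences of a few members show what the peaks lay on, with the promoter boxes in capitals. Each runs 5′ to 3′ on the strand of the tRNA gene and holds 60 bases before the gene, the gene and 20 bases after it, read from the RefSeq WBcel235 genome. The first stretch of capitals is the match to the A box and the next is the match to the B box, spelled GTTCNANNC. F29C4.t1 is an arginine tRNA gene (chrIV:143922-144074, plus strand), F15G9.t1 an alanine tRNA gene (chrX:9743529-9743680, plus strand) and ZC455.t1 a serine tRNA gene (chrV:12780366-12780527, minus strand), all among the 10 members of highest peak signal. K12H4.t1, a proline tRNA gene (chrIII:8069345-8069496, plus strand), had no summit, and its sequence held no match to the B box.
F29C4.t1: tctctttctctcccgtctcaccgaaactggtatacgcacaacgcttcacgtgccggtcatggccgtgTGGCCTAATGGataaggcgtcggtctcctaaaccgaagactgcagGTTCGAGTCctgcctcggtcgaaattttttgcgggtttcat
F15G9.t1: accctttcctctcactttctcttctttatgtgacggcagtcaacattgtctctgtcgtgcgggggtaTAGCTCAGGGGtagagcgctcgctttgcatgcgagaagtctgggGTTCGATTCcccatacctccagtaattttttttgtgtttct
ZC455.t1: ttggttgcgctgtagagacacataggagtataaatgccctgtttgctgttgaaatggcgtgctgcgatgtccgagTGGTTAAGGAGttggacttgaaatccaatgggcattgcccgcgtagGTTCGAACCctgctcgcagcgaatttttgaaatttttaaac
K12H4.t1: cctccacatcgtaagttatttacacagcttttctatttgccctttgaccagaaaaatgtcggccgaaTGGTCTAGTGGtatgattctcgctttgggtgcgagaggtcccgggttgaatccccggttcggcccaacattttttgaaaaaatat

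Because tRNA genes exist in many identical copies, the same gene body can be compared in different introns. The following 3 pairs come from the 3 largest sets of identical genes, among those that could be shown, with a copy marked in both replicate lists and another in no thresholded list. A larger proline set had no copy marked in both replicates. Each pair sets the strongest such copy beside the weakest, so the pairs are extremes. They were chosen after the values were seen and serve as illustration. The lysine tRNA gene K04C2.t3 (chrIII:6887708-6887860, minus strand) had a summit and W07G4.t1 (chrV:13027008-13027160, minus strand) had none. The threonine tRNA gene ZK563.t1 (chrX:3371402-3371553, minus strand) had a summit and F36D4.t2 (chrV:9407020-9407171, minus strand) had none. The glutamine tRNA gene R04A9.t1 (chrX:410331-410482, plus strand) had a summit and R09E10.t1 (chrIV:10311211-10311362, minus strand) had none. Within each pair the tRNA gene is letter for letter the same, and the flanks differ.
K04C2.t3: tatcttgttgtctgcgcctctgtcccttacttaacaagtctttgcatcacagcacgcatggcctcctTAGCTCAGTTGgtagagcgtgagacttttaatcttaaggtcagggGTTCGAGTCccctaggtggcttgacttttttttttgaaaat
W07G4.t1: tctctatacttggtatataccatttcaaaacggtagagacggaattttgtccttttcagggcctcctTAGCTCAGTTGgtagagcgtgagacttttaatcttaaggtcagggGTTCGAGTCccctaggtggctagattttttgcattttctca
ZK563.t1: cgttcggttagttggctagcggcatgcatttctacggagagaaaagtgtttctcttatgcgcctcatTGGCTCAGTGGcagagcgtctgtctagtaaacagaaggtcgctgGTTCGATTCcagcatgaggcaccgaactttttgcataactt
F36D4.t2: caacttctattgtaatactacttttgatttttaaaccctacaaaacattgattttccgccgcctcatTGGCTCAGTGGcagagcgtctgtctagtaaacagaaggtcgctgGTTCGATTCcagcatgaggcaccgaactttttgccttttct
R04A9.t1: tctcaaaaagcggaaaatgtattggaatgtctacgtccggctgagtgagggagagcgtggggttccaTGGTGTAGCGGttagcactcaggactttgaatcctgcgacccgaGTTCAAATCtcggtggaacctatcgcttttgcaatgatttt
R09E10.t1: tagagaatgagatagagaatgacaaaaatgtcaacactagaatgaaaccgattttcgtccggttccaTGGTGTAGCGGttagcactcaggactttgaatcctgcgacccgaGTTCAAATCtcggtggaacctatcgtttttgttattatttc

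A large minority of intronic tRNA genes carried an FLT-1 summit. In the list of peaks called on both replicates together, thresholded on the irreproducible discovery rate (IDR), 128 of 284 members (45.1%, exact 95% interval 39.2 to 51.1) had a summit within 250 bp, where the share over all nuclear tRNA genes was 44.3%. In the list of replicate 1 alone 107 members (37.7%) had one, against 38.2% of all nuclear tRNA genes. In the list of replicate 2 alone it was 94 members (33.1%), against 33.7%. In each list the members were thus within 1 percentage point of the background of all tRNA genes. Intervals cover counting error only. Peak lists hold no read counts, and sequencing depth is unknown.

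Replicates marked largely overlapping sets. A summit in the joint list and in both replicate lists was found at 90 members, in the joint list and replicate 1 at 12, in the joint list and replicate 2 at 3, and in the joint list alone at 23. Another 5 members had a summit in a replicate list but not in the joint list, of which F56F4.t2, a lysine tRNA gene in pept-3, was in both replicate lists with signals of 118.1 and 59.75. It was also in the authors' conservative list of both replicates, at 181.1, and why the joint list lacks it was not tested. The remaining 151 members were in none of these 3 lists. Peak signal is the authors' value and ranks peaks only within a list. Across the 179 members present in the ranked list of each replicate, before any threshold, Spearman's rho between the replicates' signals was 0.901. It was 0.876 among the 124 of these with a summit in the joint list and 0.404 among the 55 without, a description across genes that share libraries and sequences. The joint list was called on these same replicates, so splitting by it selects on signal, and the contrast between these 2 values is not independent of the split.

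**Figure D1:**
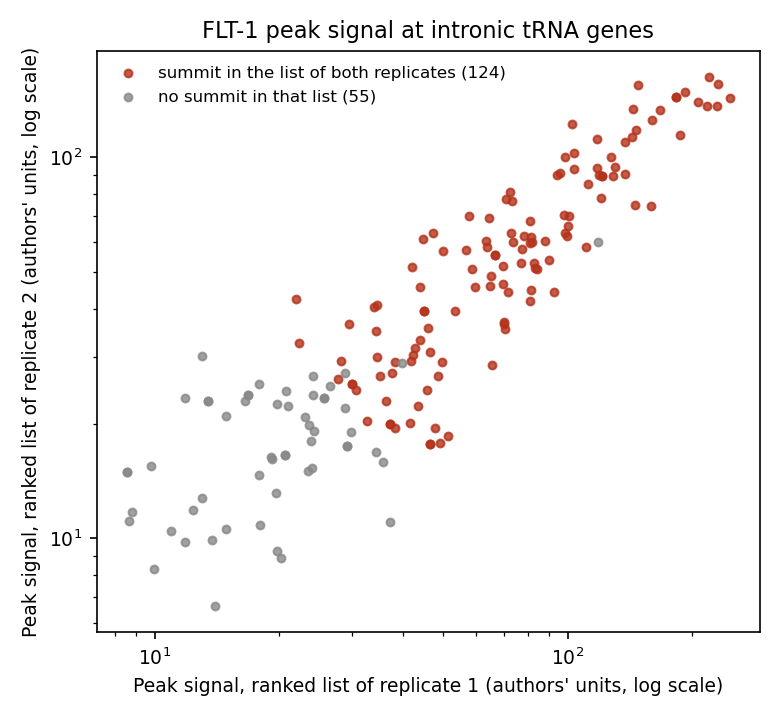
Peak signal of intronic tRNA genes in the ranked list of replicate 1 (x axis) and of replicate 2 (y axis), in the authors' units on log scales, with 1 point per gene. The 124 genes with a summit in the joint thresholded list (red) sit towards the upper right, and the 55 without (grey) mostly towards the lower left, with overlap between them. The colours split genes by a list called on these same replicates.

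The strongest intronic peaks lay at genes for many different amino acids. F17H10.t1, a glycine tRNA gene in the sorting nexin gene snx-17 on X, had a signal of 393.4 in the joint list, 231.2 in replicate 1 and 155.4 in replicate 2. The tryptophan tRNA gene sup-5, known for nonsense suppressor alleles, lies in fli-1 on chromosome III and had 388.6, with 246.3 and 143 in the replicates. E03E2.t1, a serine tRNA gene in cat-1, the vesicular monoamine transporter, had 387.7, with 219.3 and 162.2. These 3 lead the 10 described here, the highest of those present in both replicate lists. The joint signal of all 128 ran from 50.54 to 393.4 with a median of 127.7 and quartiles of 77.69 and 198.3.

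The others of the 10 highest were spread over 5 chromosomes and both host strands. T21B4.t1, an isoleucine tRNA gene in the collagen gene col-85, had 368.5 in the joint list, with 229.9 and 136.6 in the replicates. F29C4.t1, an arginine tRNA gene in col-99, another collagen gene, had 354.8, with 217.4 and 135.9. C37A2.t1, a cysteine tRNA gene in cye-1, which encodes cyclin E, had 350.4, with 206.4 and 139.6. Signal in replicate 1 was above that in replicate 2 at each of these 3, as it was at the first 3. F15G9.t1 and F15G9.t2, alanine tRNA genes in him-4, which encodes the extracellular matrix protein hemicentin, shared 1 peak of 343.7, with 182.4 and 143.9. ZC455.t1, a serine tRNA gene in ZC455.1, had 342.7, with 192.4 and 148.3. F41D9.t3, an asparagine tRNA gene in sulp-3, of the sulfate permease family, had 320.7, with 147.5 in replicate 1 and 154.7 in replicate 2. It was the exception among the 10 in having the higher value in replicate 2, although values of separately called lists are not on a shared scale. At intergenic tRNA genes the median signal in the joint list was 138.7, and at the 832 peaks near no tRNA gene it was 68.86.

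Many members without a summit in the joint list were still ranked, at low signal. Of these 156, 81 still appeared in the joint ranked list, with a median -log10 IDR of 0.186 and a highest value of 1.997. In the ranked list of replicate 1 the median signal was 70.72 at members with a joint summit and 19.67 at the listed members without, and in replicate 2 it was 55.44 and 16.01. Joint summits were called on the same replicates, so the direction of this difference was built into the split. Among the 147 members in none of the thresholded lists, the conservative list included, 44 were in all 4 ranked lists and 36 in none. The highest joint ranked signals among them were 52.3 at F21C3.t1 (lysine), 51.91 at Y57A10C.t1 (methionine) and 51.09 at K12H4.t1 (proline), close to the lowest value of 50.54 at a member with a summit. No ranked list held a summit at T22C1.t1 (isoleucine), DY3.t2 (isotype not given) or T22A3.t4 (glycine). The members found in the joint list alone were led by Y4C6B.t1 (glutamine) at 99.28, Y43F4A.t1 (tyrosine) at 81.08 and R04F11.t1 (asparagine) at 75.

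Summits fell towards the 5′ end of the tRNA gene, mostly nearer to the start of the A box than to that of the B box. Summits inside the A box itself were not counted. The median summit lay 13 bp downstream of the gene's first base in the joint list (quartiles 9 and 24), in replicate 1 (7 and 23) and in replicate 2 (9 and 25). The tRNA genes themselves were 73 bp long at the median. Leaving out 6 members whose summit was nearer to another tRNA gene, 111 of 122 summits lay inside the gene, 9 upstream and 2 downstream, and 89 (73%) fell in bases 5 to 30. The median summit was 6 bp downstream of the first base of the A box and 39 bp upstream of that of the B box, and 83.2% of summits at genes with both boxes were nearer to the start of the A box. Where both replicates had a summit, at 91 members, the replicate summits were a median of 12 bp apart and at most 80 bp. That distance is far below the sonicated fragments of 200 to 800 bp, so a summit position is an estimate from overlapping fragments. The median position was 14.5 bp on the strand of the host and 13 bp on the opposite strand in the joint list. It was 16.5 and 11 bp in replicate 1 and 13 and 15 bp in replicate 2, so the replicates did not share an order.

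**Figure D2:**
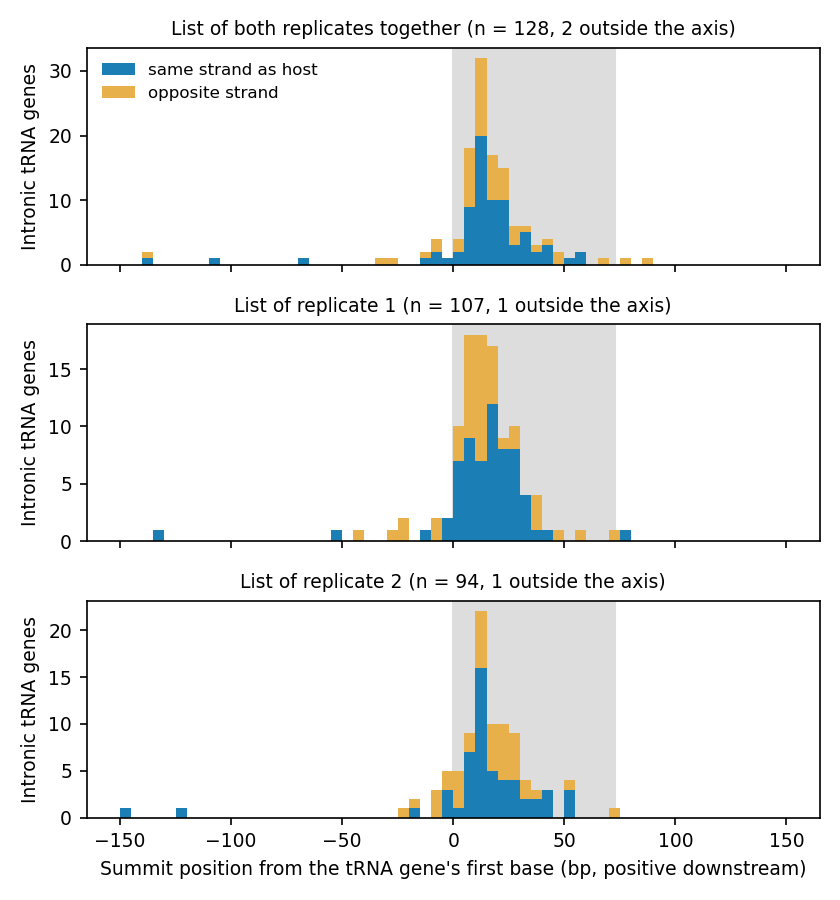
Number of intronic tRNA genes (y axis) by distance of the FLT-1 summit from the gene's first base in bp (x axis), in the joint list and each replicate's list, coloured by strand relative to the host, with grey marking the median gene length of 73 bp. In all 3 panels most summits pile up just inside the 5′ end, at a median of 13 bp.

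The few distant summits belonged to neighbouring tRNA genes. H08J11.t2, a glutamine tRNA gene in ajm-1, had its summit 226 bp beyond the gene, and that summit lay inside H08J11.t3, another glutamine tRNA gene of the same host. F15G9.t2 lay 138 bp from the summit inside F15G9.t1, and K04C2.t1, a glycine tRNA gene in brd-1, lay 137 bp from the summit inside K04C2.t2. In all, 122 distinct summits served the 128 members, and 6 of them served a pair each. Each member had at most 1 joint summit. At 9 of the 128 members (7.03%) the summit lay in a promoter of a protein-coding gene, from 500 bp upstream to 200 bp downstream of a transcript start, 7 of these in that of the own host. How this share compares with that of other summits, or with the position of members without a summit, was not tested. It is therefore a count and shows neither an excess nor a lack of promoter summits. No member's summit lay within 250 bp of an annotated snoRNA, snRNA, miRNA or rRNA gene. The nearest members to baz-2 and unc-119, the genes named for the transgene, were 8324 and 52915 bp away. Whether the fosmid copy reaches any member was not tested.

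Intronic and intergenic tRNA genes carried summits at similar rates. The shares in the joint list were 128 of 284 (45.1%) and 138 of 319 (43.3%), an odds ratio of 1.08 (exact interval 0.77 to 1.5) with a two-sided Fisher exact p of 0.682, adjusted to 1 over 3 tests by Benjamini-Hochberg. The odds ratio was 0.976 (0.692 to 1.38, exact adjusted p of 0.933) in replicate 1 and 0.967 (0.679 to 1.38, exact adjusted p of 0.899) in replicate 2. Genes share sequences and sometimes summits, so they are not independent units in these tests, and a p that misses the threshold does not show equal rates. Among tRNA genes whose sequence occurs once, 14 of 66 intronic members (21.2%) and 30 of 74 intergenic genes (40.5%) had a summit. That odds ratio was 0.398 (0.172 to 0.886), in the opposite direction, with an exact p of 0.0177 and an adjusted p of 0.0527.

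Strand relative to the host did not separate members with and without a summit beyond counting error. On the strand of the host 76 of 161 members (47.2%) had a summit, and on the opposite strand 52 of 123 (42.3%), and the odds ratio was 1.22 (0.741 to 2.02; exact p of 0.47, adjusted to 1). In replicate 1 the odds ratio was 1.23 and in replicate 2 it was 1.05, with exact adjusted p of 0.933 and 0.899. The median joint signal was 122.1 on the strand of the host and 133.6 on the opposite strand, within ranges that overlapped almost wholly. Among the 66 members of unique sequence, of which 14 had a summit, the odds ratio was 5.03 with a wide interval (0.972 to 50.7). Its exact p was 0.0352, and the exact adjusted p was 0.0527.

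Members on the X chromosome and on autosomes did not differ beyond counting error. On X 43 of 95 members (45.3%) had a summit and on autosomes 85 of 189 (45%), and the odds ratio was 1.01 (0.597 to 1.71; exact p of 1, adjusted also 1). In replicate 1 the odds ratio was 1.08 (0.631 to 1.85) and in replicate 2 it was 1.12 (0.639 to 1.94). By chromosome the share ran from 16 of 47 on V (34%) to 17 of 31 on IV (54.8%), with wide and overlapping intervals of 20.9 to 49.3% and 36 to 72.7%. The median joint signal was 122.6 on X and 128.5 on autosomes. Among members of unique sequence the odds ratio was 0.457 (0.0443 to 2.48, exact adjusted p of 0.488).

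**Figure D3:**
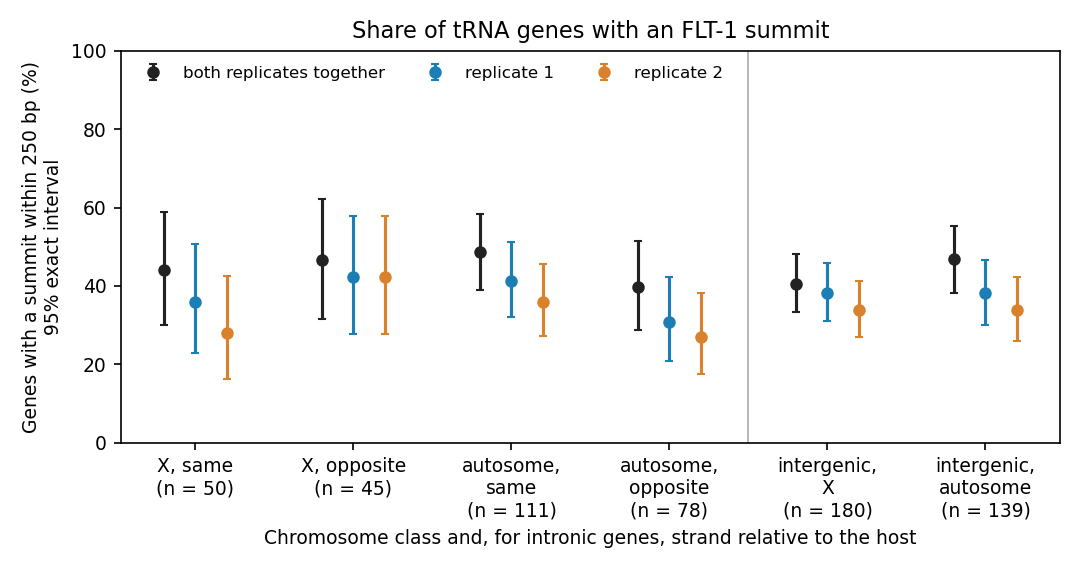
Share of tRNA genes with an FLT-1 summit within 250 bp (y axis, percent) for intronic genes by chromosome class and strand relative to the host, and for intergenic genes by chromosome class (x axis), in the joint list and each replicate's list, with exact 95% intervals. The intervals of all classes overlap within each list, with joint shares from 39.7% to 48.6%.

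The introns themselves gave no sharp division. The 284 members lay in 220 host genes, 46 of which held more than 1 member. The median intron was 511 bp long, from 115 to 20089 bp, and it was 374.5 bp at members with a summit and 561.5 bp at those without. Split at the median length, 68 of 142 members in the shorter introns (47.9%) and 60 of 142 in the longer (42.3%) had a summit. Of 73 members in a first intron 32 had one (43.8%), and of 211 in later introns 96 (45.5%).

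Of the 46 hosts with more than 1 member, 24 had no member with a summit, 8 had a summit within 250 bp of every member and 14 held members of both kinds. A summit shared by neighbouring members counted for each of them here, as in him-4 and brd-1, so these 8 did not all have a separate summit per member. Whether members of the same host were alike beyond the overall share was not tested. The hosts with most members were ajm-1 on X, which encodes an apical junction protein of epithelia, with 5, and K01A12.3 on X, annotated as a putative G-protein coupled receptor, also with 5. In ajm-1, all glutamine tRNA genes, the summit inside H08J11.t3 had a joint signal of 119.8, with 66.66 and 55.44 in the replicates, and counted for H08J11.t2 also, while the other 3 had none. In K01A12.3 the cysteine tRNA gene K01A12.t2 and its arginine neighbour K01A12.t3 shared a summit of 51.04 that was in neither replicate list. Next came 12 hosts with 3 members each, of which 6 had no summit at all, and the 2 of highest summed signal are given here. All 3 members in brd-1 on chromosome III, the gene of the BRCA1 partner BARD1, had a summit, with 197.4 at K04C2.t3 and a shared 60.19 at the others, which neither replicate list held. In unc-58 on X, which encodes a potassium channel subunit, T06H11.t2 had 194.9, with 120 and 78.04 in the replicates, and the 2 other tRNA genes had none.

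Members with a summit tended to have a higher GC content just upstream, although 51 of the 128 lay at 44% or less. This pattern was looked for after the peak values were known and is given as a description without a test. The 50 bp before the gene had a median GC content of 46% at members with a summit and 38% at those without, and the next 50 bp had 46% and 36%. In a window of the same width lying more than 250 bp upstream both groups were at 36%, and the 50 bp downstream of the gene were at 28% and 26%. Windows of 10 bp differed elsewhere too, with means of 40.55% and 34.62% at 50 to 59 bp downstream and 40.86% and 34.74% at 70 to 79 bp. Farther upstream the order was reversed over a continuous stretch, and every window from -240 to -161 bp had the lower mean at members with a summit. The widest of these gaps, at -180 to -171 bp, was 33.75% with a summit and 39.04% without. The window more than 250 bp upstream lies beyond that stretch. The tRNA gene itself was at 58.3% and 59.2%, so the gene bodies were alike or slightly in the other direction. The replicate lists gave 46% with and 40% without a summit over the 50 bp upstream.

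**Figure D4:**
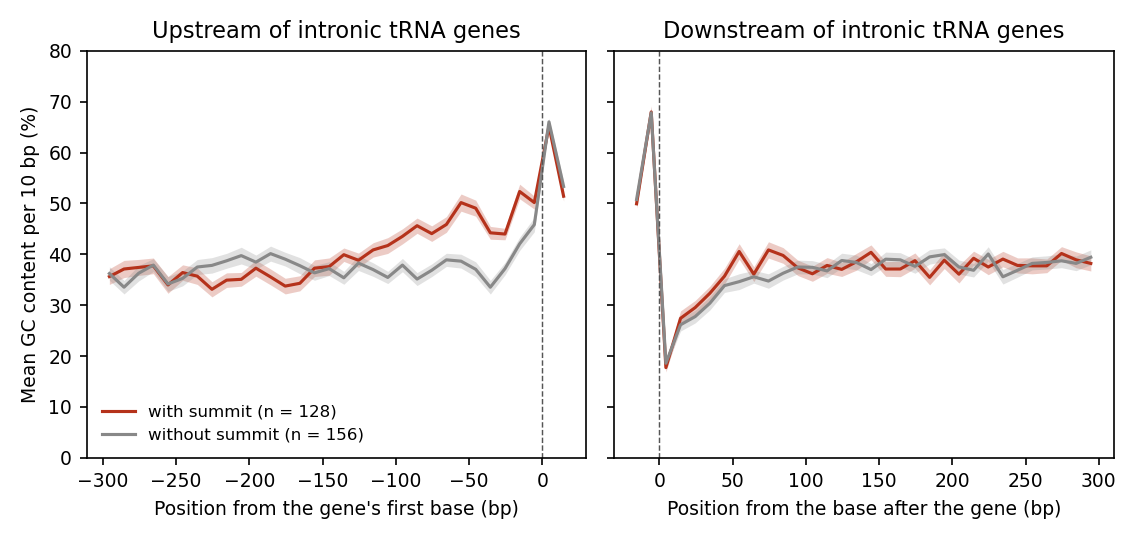
Mean GC content in windows of 10 bp (y axis, percent; shading is the standard error over genes) upstream and downstream of intronic tRNA genes (x axis, bp from the gene's ends), with a summit in the joint list (red, 128) and without (grey, 156). The lines separate over about the last 100 bp before the gene and nearly meet inside it, with smaller gaps elsewhere. From -240 to -161 bp the red line is the lower one.

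The share with a summit rose in steps with upstream GC content. Classes were set at the quartiles of the 50 bp upstream over the members, 36, 44 and 48%, and hold unequal numbers because values are tied. Up to 36% GC, 9 of 78 members (11.5%, exact interval 5.41 to 20.8) had a summit, above 36 and up to 44% it was 42 of 89 (47.2%, 36.5 to 58.1), above 44 and up to 48% it was 29 of 47 (61.7%, 46.4 to 75.5), and above 48% it was 48 of 70 (68.6%, 56.4 to 79.1). Replicate 1 alone gave 7, 34, 25 and 41 members in the same classes, and replicate 2 alone gave 7, 27, 23 and 37. The interval of the lowest class lay below those of the 3 others in the joint list and in each replicate list. Intergenic tRNA genes in the same classes of the joint list showed 17 of 95 (17.9%), 51 of 105 (48.6%), 22 of 37 (59.5%) and 48 of 82 (58.5%). Their share did not rise at the last step, but a low share in the lowest class was not particular to introns. Before any threshold, the median signal of listed members in the ranked list of replicate 1 was 20.22 in the lowest class and 65.3 in the highest, and in replicate 2 it was 16.56 and 51.44. No control library was used here, and how the recovery of GC-rich fragments during sequencing entered these shares was not tested.

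**Figure D5:**
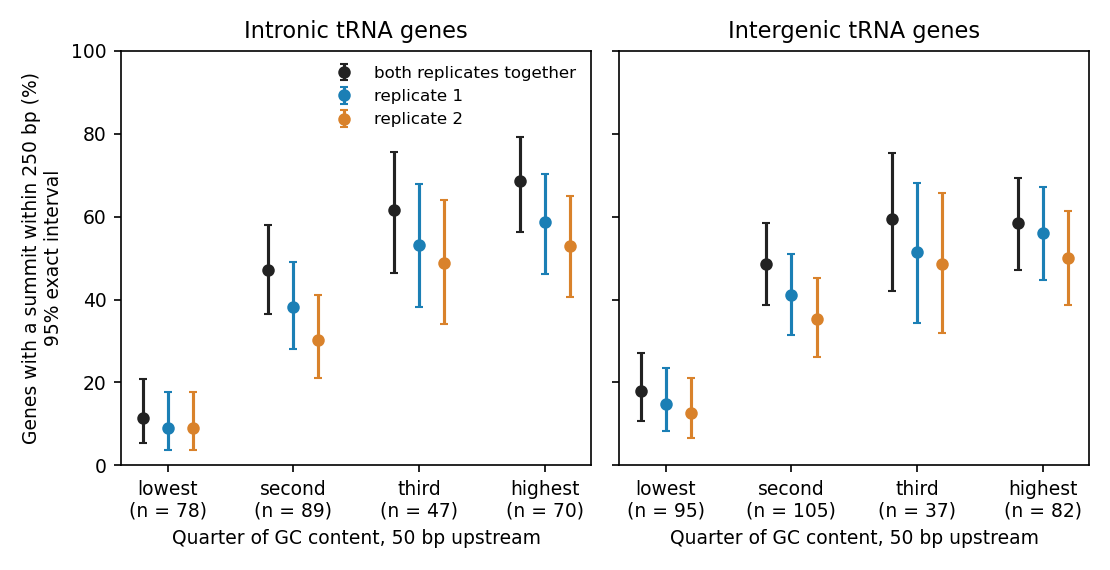
Share of tRNA genes with an FLT-1 summit within 250 bp (y axis, percent, exact 95% intervals) by class of GC content over the 50 bp upstream (x axis), for intronic and intergenic genes, in the joint list and each replicate's list. Intronic genes go from 11.5% in the lowest class to 68.6% in the highest in the joint list, and intergenic genes from 17.9% to 58.5%.

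The step was also seen among genes of identical sequence. Of the members, 31 tRNA sequences had copies both with and without a summit, 183 members in all. Mean upstream GC was higher at the copies with a summit in 27 of these sequences, lower in 3 and equal in 1, with a median difference of 9.33 percentage points. The pairs printed above are examples. K04C2.t3, with 50% GC upstream, had a signal of 197.4 in the joint list, 103.2 in replicate 1 and 102.5 in replicate 2, whereas W07G4.t1, with 38%, in an intron of the cadherin gene fmi-1, was in the ranked lists alone, at 8.68 and 11.09. ZK563.t1, with 46%, had 255.7, 137.2 and 109.4, and F36D4.t2, with 30%, was in no list. R04A9.t1, with 54%, had 227, 130.2 and 94.43, and R09E10.t1, with 36%, was in no list. In the largest set by members, the isoleucine genes of 19 copies of which C27A2.t1 is one, 6 of 13 members had a summit, at a mean upstream GC of 51% against 35.4%. Lysine tRNA genes identical to F56F4.t2 went the other way, with 5 of 12 members marked at 43.6% against 45.4%.

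Members went against the step on both sides. In the highest class 22 of 70 members had no summit, and in the next highest 18 of 47. The 9 members with a summit at an upstream GC of 36% or less included the aspartate genes C35E7.t1, F28F8.t3 and F38G1.t2 and the phenylalanine genes F22B7.t3 and F32A6.t1. F28F8.t3, in the acetylcholine receptor gene acr-18, had an upstream GC of 34% and a signal of 233.4 in the joint list, 145.3 in replicate 1 and 74.92 in replicate 2. F38G1.t2, in egl-17, which encodes a fibroblast growth factor, had 36% and signals of 228.9, 127 and 100.2.

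The promoter boxes were present at nearly all members, marked or not. The A box consensus was matched at all 128 members with a summit and at 146 of the 156 without (93.6%), and by 7.25% of genome windows of 72 bp. These counts take either strand. Near the 5′ end on the strand of the gene itself 272 members had a match, and 0 of the 12 without had a summit, which allows a share of up to 26.5%. The B box was matched at 125 of 128 (97.7%) and 149 of 156 (95.5%), against 2.44% of genome windows. Over all nuclear tRNA genes the shares were 97.2% for the A box on either strand and 96.1% for the B box. Both boxes are part of what makes a tRNA gene, so the gap to genome windows says nothing about the peaks. The letters CTCTC, searched on both strands of the 60 bp upstream after the values were seen, were found at 47 of 128 members with a summit (36.7%) and 16 of 156 without (10.3%), against 7.64% of genome windows of that length. Seen from the other side, 47 of 63 members with CTCTC (74.6%) had a summit, and 81 of 221 members without it (36.7%). Replicate 1 alone gave 40 of 63 and 67 of 221, and replicate 2 gave 37 of 63 and 57 of 221. Intergenic tRNA genes were alike, at 34.1% with and 9.94% without a summit. F29C4.t1 and F15G9.t1 above carry these letters upstream. The part of upstream GC content in this difference was not tested.

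Intronic members of unique sequence were marked less often in the counts than repeated ones, and intergenic genes showed no such step. Members whose sequence occurs once had a summit at 14 of 66 (21.2%), those with 2 to 5 copies in the nuclear genome at 16 of 40 (40%), those with 6 to 15 copies at 61 of 107 (57%) and those with 16 or more at 37 of 71 (52.1%). In replicate 1 the counts were 12, 13, 56 and 26, and in replicate 2 they were 11, 11, 49 and 23. Intergenic genes of the same copy classes were marked at 40.5%, 47.6%, 42% and 45.2%. The difference between intronic and intergenic genes in this respect was not tested. Members of sequence found once and at least 3 letter changes from any repeated tRNA gene were marked at 4 of 30 (13.3%), among them C14B9.t2, a leucine tRNA gene, at 239.4 in the joint list, 159.1 in replicate 1 and 74.31 in replicate 2. The same kind of gene in intergenic sequence was marked at 15 of 36 (41.7%). The sources used here do not say how reads from identical copies were placed, so signal at repeated genes is uncertain where fragments lie wholly inside them.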

How the data were processed

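FLT-1 peak lists from 2 biological replicates of 1 group of early embryos were used, on the ce11 assembly per the labels. The authors deposited thresholded and ranked lists for each replicate and for both together. The deposited signal of each peak has no scale stated in the sources used here, and the deposited -log10 column is that of the irreproducible discovery rate. The sources used here name no aligner or peak caller, and read depth is unknown.

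A member was marked if a summit lay within 250 bp, and the summit of highest signal was kept. The joint thresholded list of 1083 peaks was the main one, and replicates were compared through their own lists of 618 and 747 nuclear peaks. Annotation was Ensembl release 115, with tRNA products and sequence from RefSeq WBcel235, matched for 281 members. For 1 member inside 2 hosts the smaller host was used. Shares have exact Clopper-Pearson intervals at 95%. Fisher's exact tests, two-sided, were adjusted over 3 comparisons. The summit match and the offset were checked on simulated peaks, and the odds ratio on a made-up table. Members and lists were chosen with earlier results of these data known.

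Named genes were the 10 members of highest joint signal present in both replicate lists, the 2 highest by chromosome class and strand, the 3 strongest unmarked, the 3 in fewest ranked lists, the 3 with the farthest summits, the 4 hosts with most members (ties broken by summed signal), members whose lists disagreed, and the 3 commonest isotypes. Other named genes were chosen after their values were seen. Alternatives used a single replicate's own list or changed the joint list, the distance, the copies, the strand or chromosome class, and the upstream window. Python 3.11.15, NumPy 2.4.6, SciPy 1.17.1, edlib 1.3.9.post1 and Matplotlib 3.10.9 were used.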

Additional observations from a re-analysis of the deposited data

How the results depend on the processing

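Of 69 alternative values, 12 moved, 10 changed direction around an odds ratio of 1, and 47 counted as unchanged. Unchanged values kept the direction and call of a test, or lay within a share's exact interval or a median's replicate spread. No adjusted p of 36 tests passed 0.05, and the lowest was 0.0527. The cause of these moves was not tested. With each replicate's own list in place of the joint one, the marked share was 33.1 to 37.7% and the intronic against intergenic odds ratio 0.967 to 0.976. The marked share at the highest upstream GC was 52.9 to 58.6%. The median signal was 63.3 to 81.2, but separately called lists share no scale with the joint one. With summits above the median signal alone, 34.5% were marked, the median signal was 146 and the X against autosome odds ratio was 0.947. Such a filter can only lower the share and raise the median signal, so those moves were fixed in advance. With sequences found once, 21.2% were marked at a median position of 19 bp, and the odds ratios were 0.398 for intronic against intergenic, 0.457 for X against autosomes and 5.03 (0.972 to 50.7) for strand. The conservative list gave a median position of 13.5 bp and an X odds ratio of 0.929, and a distance of 100 bp gave 13.5 bp and 0.97. The X odds ratio was 0.83 on the strand of the host alone, the strand odds ratio was 0.899 on X alone, and the intronic odds ratio was 0.931 on autosomes alone. With GC taken over 100 bp upstream, a setting chosen after seeing the data, 80% were marked in the highest class. The median position was 13 bp in both replicates, so even shifts of 0.5 bp exceed their spread.

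No paired analysis was possible because there was only 1 group. Depth is unknown, so absence from a list does not show absence of FLT-1.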

Other observations

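Amino acid identity varied widely in how often its intronic genes were marked, in counts too small to rank and with copies that share sequence. Among the 3 isotypes with most members, glycine had a summit in the joint list at 10 of 27 intronic genes and 14 of 28 intergenic genes, and lysine at 10 of 26 and 10 of 20. Proline had 4 of 22 intronic genes marked and 12 of 20 intergenic genes, and each replicate alone marked 2 of the 22. The marked intronic proline genes were F14B4.t2 at 146.9, B0212.t1 at 153.8, and W09D6.t1 and W09D6.t2, which shared a peak of 64.21.

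Other isotypes, picked out after their values were seen, differed in the other direction. Aspartate had a summit at 10 of 11 intronic genes (8 in replicate 1 and 6 in replicate 2) and at 5 of 14 intergenic genes. Phenylalanine had 5 of 6 intronic genes marked, in each replicate also, and 1 of 8 intergenic genes. Asparagine had 7 of 12 and 1 of 8. No test was made of these differences.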
